A study of Mus musculus with 8 samples.

Results

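The RNA of Trp53, which encodes p53, was followed together with 2 genes for its inhibitors, Mdm2 and Mdm4, and 7 of its best known targets, Cdkn1a, Ccng1, Zmat3, Phlda3, Btg2, Xpc and Trp53inp1. These 10 genes were picked by name from the 12823 genes of the count table, and all 10 had enough reads to be tested. Both groups consisted of mouse bone marrow progenitors transduced with MLL-AF9, a fusion of the KMT2A and MLLT3 genes that causes acute myeloid leukemia (AML), together with GFP, and GFP+ leukemia cells were sorted from the bone marrow of C57BL/6 mice. The 4 new AML libraries came from leukemia that arose after a first transplantation into sublethally irradiated recipients, and the 4 of aggressive AML hold what the labels describe as the remainder of that leukemia, passed through 5 serial transplantations into mice that were not irradiated. The fusion was expressed from a vector in both groups, male mice were used for this RNA-seq, and it was not stated how many separate leukemias the libraries of a group represent, so that the p-values measure the spread between these libraries.

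p53 is a transcription factor that halts division or kills a cell after DNA damage or oncogene stress. MDM2 is a ubiquitin ligase that binds p53 and sends it to the proteasome, and since Mdm2 is itself a p53 target, the pair forms a feedback loop. MDM4 is a close relative of MDM2 that binds p53 and blocks its activity. DS-5272, with which the study treated both kinds of cells, is an inhibitor of the interaction of MDM2 with p53, and such compounds act in cells that keep p53 function. In culture, the paper reported, the aggressive cells were less sensitive to it than the new cells, with technical replicates. Whether the RNA levels given here bear on that sensitivity was not tested. The RNA was taken from leukemia cells of mice for which the labels name no drug, and it measures the level of these transcripts without such an inhibitor, not the p53 protein or its sequence.

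Total counts lay between 7805544 and 9697777 per library, and 1 read corresponded to 0.103 to 0.128 CPM, the counts scaled to the library total. Of 12494 genes tested with edgeR, 18.4% differed between the groups at an adjusted p under 0.05, 8.15% being higher and 10.2% lower in aggressive AML. The median log2 fold change (aggressive over new AML) of all tested genes was 0.00. Of 12 markers of the leukemia cells, all of which were measured, 3 rose and 4 fell, that is 58.3%. Kit rose from 105.5 ± 18.3 to 165.1 ± 17.5 CPM (mean ± SD, n = 4, adjusted p = 0.00140) and Csf1r fell from 166.2 ± 28.4 to 51.2 ± 6.42 CPM (adjusted p = 3.76e-07). Among all libraries, 4 Y-linked genes held 2315 to 2574 counts in each new AML library and 0 in each aggressive AML library. This difference followed the groups in all 8 libraries, although male mice are stated for the RNA-seq. Whether the donor cells differed in sex or the Y chromosome was lost was not examined. Either would follow the groups just as the transplantation history does. Their parts therefore cannot be told apart in any difference between the groups given below.

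The levels of the 10 genes were compared per kilobase of annotated exon. Xpc, the damage sensor of nucleotide excision repair, was the most abundant at 67.6 ± 3.81 CPM per kb (SD, n = 8 libraries). Trp53 followed at 40.7 ± 5.45 and Ccng1 at 38.2 ± 7.69 CPM per kb, with ranges that overlapped over the libraries. Cdkn1a, Mdm4 and Mdm2 formed the middle of the order at 19.1, 17.3 and 17.2 CPM per kb, and neighbours among these 3 could not be separated by their ranges. Phlda3, Btg2 and Trp53inp1 lay at 5.52, 5.28 and 4.69 CPM per kb, again with overlapping ranges, and Zmat3 was lowest at 0.763 ± 0.118 CPM per kb. On this scale Trp53 stood at the 88.4th percentile of the tested genes with an annotated length, so that these leukemia cells carried abundant p53 RNA in both groups.

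The RNAs of p53 and its 2 inhibitors showed no difference that passed the test. Trp53 (chromosome 11, 69580348 to 69591873, GRCm38) measured 198.0, 170.3, 176.9 and 149.8 CPM in new AML replicates 1 to 4 and 170.1, 162.5, 121.7 and 167.3 CPM in aggressive AML replicates 1 to 4. The groups overlapped, and 3 of the aggressive AML libraries lay within the range of new AML while replicate 3 lay below every other library. The log2 fold change was -0.16 (95% interval -0.39 to 0.07, adjusted p = 0.325), and it became -0.06 without that replicate.

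Mdm2 (chromosome 10, 117688875 to 117710758) measured 87.2, 84.7, 71.0 and 85.5 CPM in new AML and 88.4, 95.3, 100.5 and 86.0 CPM in aggressive AML. In 3 of the 4 aggressive AML libraries it was above the highest new AML library, but the fourth overlapped. Its log2 fold change of 0.17 (interval -0.02 to 0.36) had an adjusted p of 0.191. These bounds leave room for a level in aggressive AML between 0.989 and 1.28 times that in new AML. Mdm4 (chromosome 1, 132986105 to 133030587) was the steadiest of the 10 genes within the groups, with 253.8, 276.6, 245.4 and 255.7 CPM in new AML and 260.0, 267.6, 242.6 and 248.8 CPM in aggressive AML, a coefficient of variation of 5.14% and 4.39%. The groups lay on top of each other, with a log2 fold change of -0.02 (interval -0.17 to 0.13, adjusted p = 0.886), whose sign turned when 1 of 3 single libraries was left out.

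**Figure D1:**
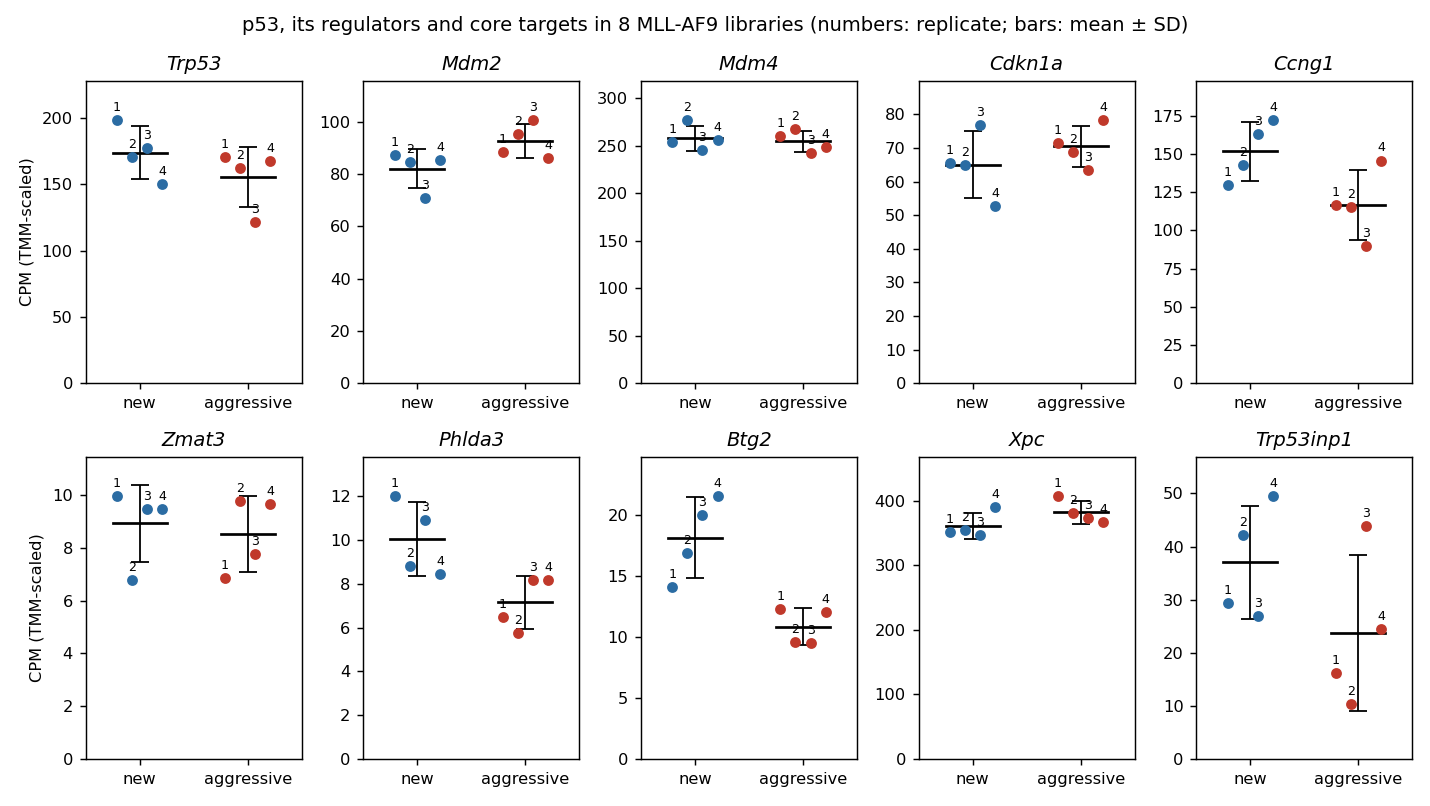
Expression of the 10 genes in CPM (vertical axes from 0, each gene on its own scale) in new AML (blue) and aggressive AML (red), with the replicate number beside each point and the mean ± SD as black bars. The groups are apart for 2 genes, Btg2 and Phlda3, as they are for 21.8% of all tested genes, overlap for the other 8 genes, and aggressive AML replicate 3 is the lowest library for Trp53 and Ccng1 but the highest of its group for Trp53inp1.

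Because an inhibitor of MDM2 acts on the balance of MDM2 and p53, the ratios of the 3 RNAs were also taken within each library, where the scaling of libraries cancels. The log2 ratio of Mdm2 to Trp53 counts was -1.18, -1.01, -1.32 and -0.81 in new AML and -0.94, -0.77, -0.28 and -0.96 in aggressive AML. The mean difference was 0.34, but it was 0.19 without aggressive AML replicate 3, whose ratio was far above the others, and the groups overlapped (two-sided exact permutation p = 0.114, adjusted over 3 ratios 0.171). For Mdm2 to Mdm4 the log2 ratio was -1.54, -1.71, -1.79 and -1.58 in new AML and -1.56, -1.49, -1.27 and -1.53 in aggressive AML, a difference of 0.19 with 1 overlapping pair of libraries (exact permutation p = 0.0571, adjusted 0.171). For Mdm4 to Trp53 the difference was 0.15 (exact permutation p = 0.314), and it was 0.06 without aggressive AML replicate 3. The smallest p that 4 against 4 libraries allow is 0.0286. None of the 3 ratios was separated by this test.

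**Figure D2:**
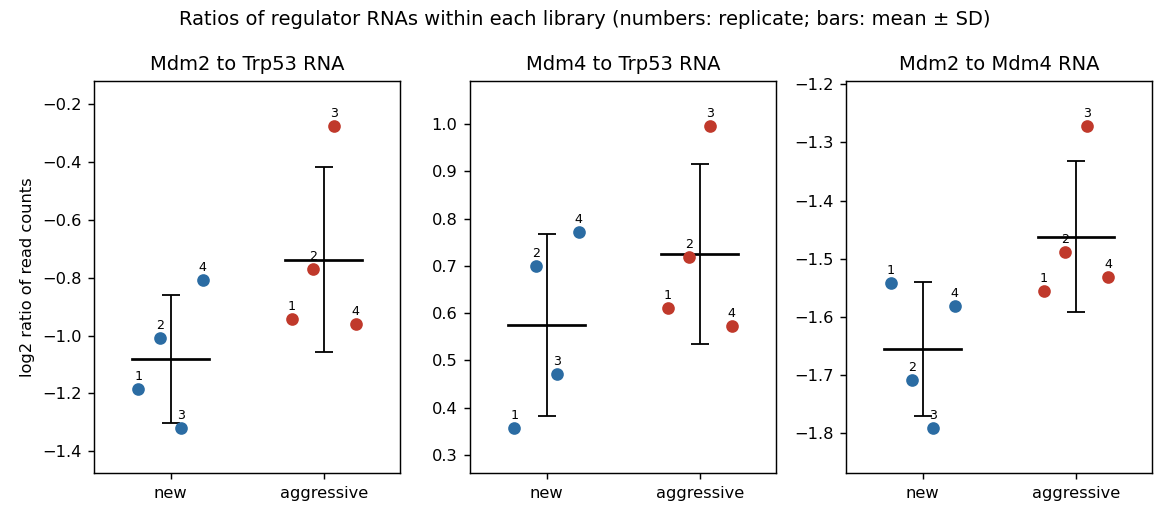
Log2 ratios of the read counts of Mdm2 to Trp53, Mdm4 to Trp53 and Mdm2 to Mdm4 (vertical axes, which do not start at 0) in each library, with replicate numbers, group means and SD. In all 3 panels aggressive AML replicate 3 is the highest point, and the other aggressive AML libraries lie within the range of new AML for Mdm4 to Trp53.

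The promoters of the members were searched for the p53 half-site, the 10-base unit made of 3 purines, C, 2 bases that are A or T, G and 3 pyrimidines, which reads the same on both strands. RefSeq windows of 300 bases (250 before and 50 after an annotated start, GRCm38.p6) were at hand for 7 of the 10 genes, in 9 windows. A half-site without mismatch was present in 1 window each of Cdkn1a, Mdm2, Ccng1 and Trp53, where 8.36% of all 32851 windows hold one. The first start of Cdkn1a has 2 of them with a spacer of 12 bases, as 0.359% of windows have 2 or more. The Btg2, Phlda3 and Mdm4 windows have none, which says nothing of sites outside these bases. Shown here are the windows of the 2 targets that were lower in aggressive AML, Btg2 and Ccng1, and of the 2 feedback and arrest genes that were not called, Mdm2 and Cdkn1a, with half-sites in capitals, each 5′ to 3′ on the strand of its gene.
Btg2, chr1:134079106-134079405, minus strand: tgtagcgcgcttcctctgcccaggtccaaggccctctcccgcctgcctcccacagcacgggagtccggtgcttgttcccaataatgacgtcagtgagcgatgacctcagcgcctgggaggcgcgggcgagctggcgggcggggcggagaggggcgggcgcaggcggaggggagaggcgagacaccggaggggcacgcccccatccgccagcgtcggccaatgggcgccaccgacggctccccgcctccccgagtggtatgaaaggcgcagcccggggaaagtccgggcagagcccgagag
Ccng1, chr11:40755237-40755536, minus strand: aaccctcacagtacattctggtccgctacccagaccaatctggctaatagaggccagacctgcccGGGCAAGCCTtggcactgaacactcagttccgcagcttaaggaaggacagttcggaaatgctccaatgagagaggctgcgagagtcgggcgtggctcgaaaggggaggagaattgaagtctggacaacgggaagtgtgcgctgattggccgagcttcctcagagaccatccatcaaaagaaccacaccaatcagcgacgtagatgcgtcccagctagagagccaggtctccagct
Mdm2, chr10:117710709-117711008, minus strand: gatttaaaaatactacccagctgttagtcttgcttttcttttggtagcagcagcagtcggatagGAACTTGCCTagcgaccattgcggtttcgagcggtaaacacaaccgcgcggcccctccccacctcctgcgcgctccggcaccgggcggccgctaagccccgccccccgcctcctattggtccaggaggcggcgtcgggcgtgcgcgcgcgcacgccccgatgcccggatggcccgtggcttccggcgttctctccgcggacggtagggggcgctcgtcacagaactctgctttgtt
Cdkn1a first start, chr17:29090729-29091028, plus strand: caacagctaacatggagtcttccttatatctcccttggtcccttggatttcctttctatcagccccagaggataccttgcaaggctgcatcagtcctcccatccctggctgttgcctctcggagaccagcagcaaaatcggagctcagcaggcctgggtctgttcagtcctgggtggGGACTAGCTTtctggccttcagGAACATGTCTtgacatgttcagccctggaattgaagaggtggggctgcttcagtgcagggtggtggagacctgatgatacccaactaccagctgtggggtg
The half-site of Ccng1 begins 185 bases before its start, that of Mdm2 186 bases before, and those of Cdkn1a 73 and 51 bases before. In the Ccng1 window the 10 bases just before the capitals form a second half-site with 1 mismatch. In the Cdkn1a window the 10 bases just after the last capitals also form a half-site with 1 mismatch. Of the 2 called genes Ccng1 thus has a half-site in its window and Btg2 has none. A match is a description of these letters and not a bound site.

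**Figure D3:**
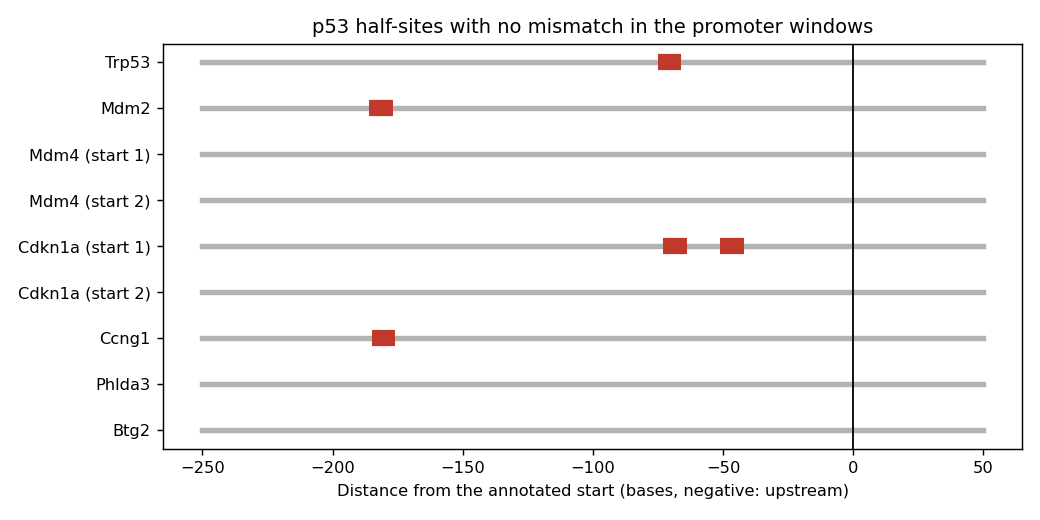
Position of p53 half-sites without mismatch (red blocks) in the 9 promoter windows of 7 members (gray lines), as distance in bases from the annotated start (vertical line). Cdkn1a has 2 blocks upstream of its first start, Trp53, Mdm2 and Ccng1 have 1 each, and Btg2, Phlda3 and Mdm4 have none.

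Of the 7 targets, 2 were lower in aggressive AML at an adjusted p under 0.05 and 0 were higher. Of the other fits, DESeq2 and limma on log2(CPM + 1) also gave 2 lower, limma with array weights gave 3, with Trp53inp1 added, edgeR with upper quartile scaling or with library totals gave 1, and none gave a member called higher. At an unadjusted p under 0.05 in edgeR there were 3, Btg2, Ccng1 and Phlda3, all lower. The share of all genes under that unadjusted threshold was not taken. The 2 called genes are 2 of 10 members, against 18.4% of all tested genes that were called and 10.2% that were called lower, so that the share was close to the background. The median log2 fold change of the 10 genes was -0.11, against 0.00 over all genes. Below 0 lay 7 of the 10, against 49.9% of all tested genes.

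Btg2 (chromosome 1, 134074865 to 134079155), an antiproliferative protein that recruits the mRNA deadenylation machinery, fell the most. It measured 14.1, 16.9, 20.0 and 21.5 CPM in new AML and 12.3, 9.54, 9.46 and 12.1 CPM in aggressive AML, so that every aggressive AML library lay below every new AML library. This gave a log2 fold change of -0.74 (SE 0.17, interval -1.09 to -0.38, adjusted p = 0.00614), and the call was kept in each of 8 fits that left out 1 library and in each of 8 other fits.

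Ccng1 (chromosome 11, 40748552 to 40755309) encodes cyclin G1, which joins a phosphatase to MDM2 and is counted among the negative feedback genes of p53. It measured 129.7, 142.6, 162.8 and 171.9 CPM in new AML and 116.8, 115.0, 89.8 and 145.7 CPM in aggressive AML. Aggressive AML replicates 1 to 3 lay below the new AML range, and replicate 4 lay inside it. The log2 fold change of -0.38 (SE 0.13, interval -0.64 to -0.11) was just past the threshold (adjusted p = 0.0489). The call was kept without new AML replicate 1 or aggressive AML replicate 4 and lost without any other single library, with adjusted p-values up to 0.145, the highest without new AML replicate 4.

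Phlda3 (chromosome 1, 135766085 to 135769134) encodes a small lipid-binding protein that restrains the kinase AKT. Its 12.0, 8.80, 10.9 and 8.47 CPM in new AML and 6.51, 5.77, 8.17 and 8.20 CPM in aggressive AML did not overlap, although the closest libraries, new AML replicate 4 and aggressive AML replicate 4, were only just apart. Such a separation was seen in 2 of the 10 members, both lower in aggressive AML, and in 21.8% of tested genes, 12% with lower and 9.76% with higher values in aggressive AML. The log2 fold change of -0.49 (SE 0.19) had an unadjusted p of 0.0210 in the edgeR test and missed the threshold after adjustment (0.0861).

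Trp53inp1 (chromosome 4, 11156441 to 11174379), a cofactor of stress-induced p53 phosphorylation and of autophagy, varied more between libraries than any other member. It measured 29.4, 42.2, 27.0 and 49.5 CPM in new AML and 16.3, 10.4, 43.9 and 24.5 CPM in aggressive AML. Aggressive AML replicates 1, 2 and 4 lay below the new AML range, whereas replicate 3 was higher than 3 of the new AML libraries. The log2 fold change of -0.64 (SE 0.31, interval -1.31 to 0.03, adjusted p = 0.170) was not called with all libraries. Without aggressive AML replicate 3 it was -1.11 with an adjusted p of 0.00590, and limma with array weights gave -1.17 with an adjusted p of 0.00330. The whole result thus turned on 1 library.

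Cdkn1a (chromosome 17, 29090979 to 29100722) encodes p21, the inhibitor of cyclin-dependent kinases through which p53 halts the cell cycle. With 65.4, 65.0, 77.0 and 52.8 CPM in new AML and 71.5, 68.9, 63.4 and 78.2 CPM in aggressive AML it was expressed in every library, and the groups overlapped widely. Its log2 fold change was 0.12 (interval -0.12 to 0.35, adjusted p = 0.495). Of its merged exons, 7.68% overlap a transcript on the other strand, and the strand setting of the counting was not stated.

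Xpc (chromosome 6, 91489305 to 91515888) measured 351.5, 354.1, 347.1 and 390.5 CPM in new AML and 407.3, 381.4, 372.8 and 366.6 CPM in aggressive AML. New AML replicate 4 lay above its group and inside the range of aggressive AML, and the log2 fold change was 0.08 (interval -0.07 to 0.23, adjusted p = 0.438). Zmat3 (chromosome 3, 32334792 to 32365665), an RNA-binding zinc finger protein, measured 9.96, 6.78, 9.48 and 9.48 CPM in new AML and 6.87, 9.78, 7.78 and 9.67 CPM in aggressive AML. The groups covered nearly the same range, and its log2 fold change of -0.07 (interval -0.47 to 0.34, adjusted p = 0.839) rested on 57 to 97 counts per library.

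**Figure D4:**
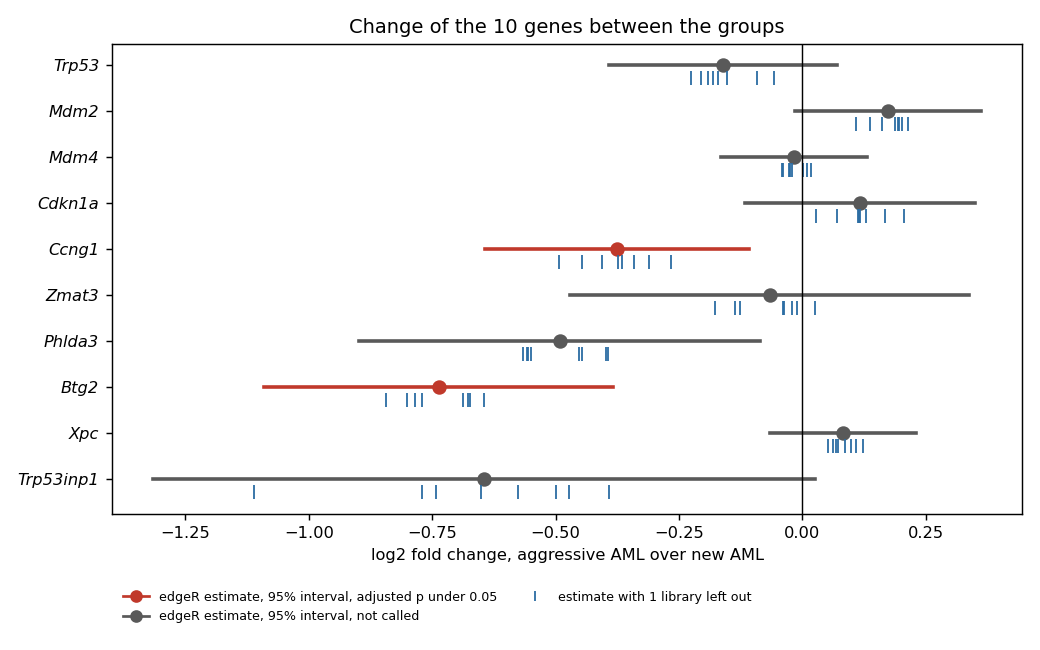
Log2 fold change of each gene (horizontal axis, aggressive over new AML) with its 95% interval, in red where the adjusted p was under 0.05 and in gray otherwise; blue ticks are the estimates with 1 of the 8 libraries left out. Btg2 and Ccng1 are red, and the ticks of Trp53inp1 run from -1.11 to -0.39.

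Differentiated blood cells were looked at because their markers moved with the groups. The summed level of 13 measured neutrophil markers was 375.2 to 552.8 CPM per new AML library and 230.8 to 288.2 CPM per aggressive AML library. Of these markers 8 fell and 1 rose, that is 69.2% against 18.4% of all genes. For 7 measured macrophage markers the sums were 363.9 to 480.0 and 216.4 to 297.6 CPM, with 2 of 6 tested genes lower, that is 33.3%. Csf1r, which is also on the list of leukemia cell markers, was 1 of these 2, and without it the macrophage sums overlapped at 226.9 to 281.1 CPM in new AML and 174.1 to 242.4 CPM in aggressive AML, with 1 of 5 tested genes lower. The sums of 12 erythroid markers were 144.1 to 234.2 and 121.4 to 156.6 CPM, with 4 of 10 tested genes lower, that is 40% against 18.4% of all genes. Much of these sums was Tfrc, at 99.2 ± 14.1 CPM in new AML and 97.7 ± 9.5 CPM in aggressive AML (log2 fold change -0.02). All 10 tested erythroid genes had a log2 fold change below 0, with a median of -1.05. Lymphoid markers were sparse, with 2 of 8 T cell, 4 of 8 B cell and 1 of 8 NK cell markers measured, and their sums stayed under 46 CPM in each library. Among them Cd22 fell from 3.81 ± 0.505 to 0.117 ± 0.135 CPM (adjusted p = 1.85e-05), while Bcl11b (log2 fold change 1.20, adjusted p = 0.0427) and Nkg7 (log2 fold change 0.70, adjusted p = 0.0225) rose. For both genes that rose the groups overlapped, and for Bcl11b 1 aggressive AML library lay below every new AML library. Il7r, the other measured T cell marker, was not called (adjusted p = 0.996). The cells were sorted for GFP, which the vector carries and host blood cells lack. The purity of the sort was not tested here, and neither was a part of host cells in these marker levels. The neutrophil sums were lower in each aggressive AML library than in any new AML library. The same held for the levels of Btg2 and Phlda3 and for 12% of all tested genes. The part of cells with these markers in the results for Btg2, Ccng1 and Phlda3 was not tested. In such bulk samples, fewer cells of a type and less RNA per cell cannot be told apart.

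Other genes of the pathway were taken from 6 lists that followed their roles. In all, 108 further genes were tested, of which 14 were lower and 5 higher in aggressive AML, that is 17.6% against 18.4% of all genes. These counts moved with single libraries: without new AML replicate 4 they were 8 lower and 2 higher, without new AML replicate 2 or aggressive AML replicate 2 they were 9 and 3, without new AML replicate 1 they were 12 and 3, and without new AML replicate 3 they were 15 and 8. The median log2 fold change of the 108 genes was -0.03.

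Of 27 upstream and stability regulators of p53, 3 fell and 1 rose, that is 14.8% against 18.4% of all genes (median -0.04). The 3 that fell were Atm, Chek2 and Prkdc. Atm, the kinase that responds to double-strand breaks, measured 89.3, 105.6, 92.7 and 103.9 CPM in new AML and 63.3, 80.5, 64.4 and 80.1 CPM in aggressive AML, without overlap (log2 fold change -0.44, SE 0.10, adjusted p = 0.00671). Chek2, which ATM activates, fell from 39.6 ± 5.49 to 27.5 ± 3.80 CPM (log2 fold change -0.52, adjusted p = 0.0109). Prkdc, the catalytic subunit of DNA-dependent protein kinase, fell from 96.5 ± 9.08 to 73.0 ± 6.35 CPM (log2 fold change -0.40, adjusted p = 0.00689). All 3 calls were kept in each of the 8 fits that left out 1 library. The partner kinases Atr and Chek1 were not called, with log2 fold changes of 0.02 (interval -0.19 to 0.22) and 0.05 (interval -0.18 to 0.28). Hexim1, an inhibitor of transcription elongation that binds p53, rose from 83.2 ± 6.04 to 104.9 ± 11.9 CPM (adjusted p = 0.0231), a call kept in 5 of those 8 fits.

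The other named regulators of the p53 protein were not called. Usp7, the deubiquitinase of MDM2 and p53, measured 210.0 ± 3.94 and 227.8 ± 11.1 CPM (adjusted p = 0.248). Its 4 aggressive AML libraries all lay above the new AML range, as for 9.76% of tested genes. Cdkn2a, whose ARF product inhibits MDM2 and whose counts also include p16, measured 33.5 ± 7.10 and 30.9 ± 3.69 CPM (adjusted p = 0.628). Ppm1d, the phosphatase that reverses ATM signalling, measured 36.6 ± 3.42 and 37.4 ± 4.85 CPM (adjusted p = 0.886), and Trp53bp1, a damage mediator, measured 73.2 ± 4.60 and 71.3 ± 4.89 CPM (adjusted p = 0.795), with 2130 of its 14164 exon bases shared with Tubgcp4 on the other strand.

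Of 16 tested apoptosis targets of p53, 1 rose and 2 fell, that is 18.8% against 18.4% of all genes (median 0.01). Pmaip1, which encodes the BH3-only protein NOXA, measured 149.9, 134.6, 158.9 and 146.3 CPM in new AML and 222.9, 222.3, 284.5 and 197.9 CPM in aggressive AML, all 4 of which were above the new AML range (log2 fold change 0.65, adjusted p = 0.000377). Trp53i11 fell from 6.59 ± 0.913 to 2.47 ± 0.443 CPM (adjusted p = 0.000717), and Shisa5, an endoplasmic reticulum protein, fell from 84.3 ± 12.7 to 68.5 ± 2.49 CPM at an adjusted p of 0.0485 that was kept in 1 of 8 fits without 1 library. Bbc3, the gene of the BH3-only protein PUMA, was not called (log2 fold change 0.07, interval -0.23 to 0.37). Bax, which opens the mitochondrial membrane, had a log2 fold change of 0.23 (adjusted p = 0.115, 12.2% of exon bases shared with Gm45808), and the death receptor gene Fas was low in both groups at 2.44 ± 0.934 and 1.33 ± 0.339 CPM (adjusted p = 0.102).

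Among 15 targets in cell cycle arrest and feedback, 4 fell and 1 rose, that is 33.3% against 18.4% of all genes (median -0.11). Tob1, an antiproliferative relative of Btg2, fell from 9.49 ± 1.64 to 5.01 ± 0.583 CPM (log2 fold change -0.92, adjusted p = 0.00429), and Ccng2, a relative of Ccng1, fell from 57.0 ± 6.69 to 41.7 ± 8.98 CPM (adjusted p = 0.0395, kept in 3 of 8 fits without 1 library). Klf4, a transcription factor that also acts in monocyte differentiation, had the largest log2 fold change of the 108 genes, with 8.42, 15.6, 30.3 and 19.6 CPM in new AML and 5.06, 4.83, 2.85 and 2.50 CPM in aggressive AML (log2 fold change -2.27, adjusted p = 0.000304). Psrc1 fell from 25.7 ± 2.09 to 18.8 ± 1.92 CPM (adjusted p = 0.0178), and the polo-like kinase gene Plk3 rose from 8.37 ± 2.59 to 14.6 ± 4.41 CPM (adjusted p = 0.0268, kept in 3 of 8 fits, 3.32% of exon bases shared with Tctex1d4).

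Of 14 targets in metabolism and stress, 2 were called, both lower, that is 14.3% against 18.4% of all genes. Pank1, an enzyme of coenzyme A synthesis, fell from 18.7 ± 1.81 to 10.4 ± 1.95 CPM (adjusted p = 0.00176) and the heme oxygenase gene Hmox1 from 18.8 ± 2.10 to 13.4 ± 2.77 CPM (adjusted p = 0.0410, kept in 3 of 8 fits). Of 12 repair and nucleotide supply targets 1 fell and 0 rose, that is 8.33% against 18.4% of all genes. This was Fancc, a Fanconi anemia gene, which fell from 23.7 ± 1.92 to 15.7 ± 2.61 CPM (adjusted p = 0.00772). Part of its exons overlap genes on the other strand.

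Cell cycle genes that p53 represses through p21 showed no common direction. Of 26 tested genes 2 rose and 2 fell, that is 15.4% against 18.4% of all genes (median 0.05). Cenpa, the centromeric histone, rose from 135.1 ± 4.93 to 169.7 ± 12.3 CPM (adjusted p = 0.00719) and the mitotic kinase gene Nek2 from 69.5 ± 2.79 to 86.5 ± 13.2 CPM (adjusted p = 0.0440, 6.6% of exon bases shared with Gm38037). The proliferation marker Mki67 fell from 851.6 ± 46.1 to 697.5 ± 77.7 CPM (adjusted p = 0.0247) and E2f2 from 69.9 ± 3.16 to 50.3 ± 15.3 CPM (adjusted p = 0.0455). The calls of Nek2, Mki67 and E2f2 were kept in 1, 4 and 1 of the 8 fits that left out 1 library, and that of Cenpa in all 8.

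For the pathway genes whose call was lost in such a fit, the highest adjusted p came without new AML replicate 4 for Hexim1 (0.0784), Ccng2 (0.113) and Psrc1 (0.0598), and without new AML replicate 2 for Hmox1 (0.126), E2f2 (0.107) and Nek2 (0.117). It came without aggressive AML replicate 2 for Plk3 (0.102) and Mki67 (0.0788), and without new AML replicate 3 for Shisa5 (0.124).

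**Figure D5:**
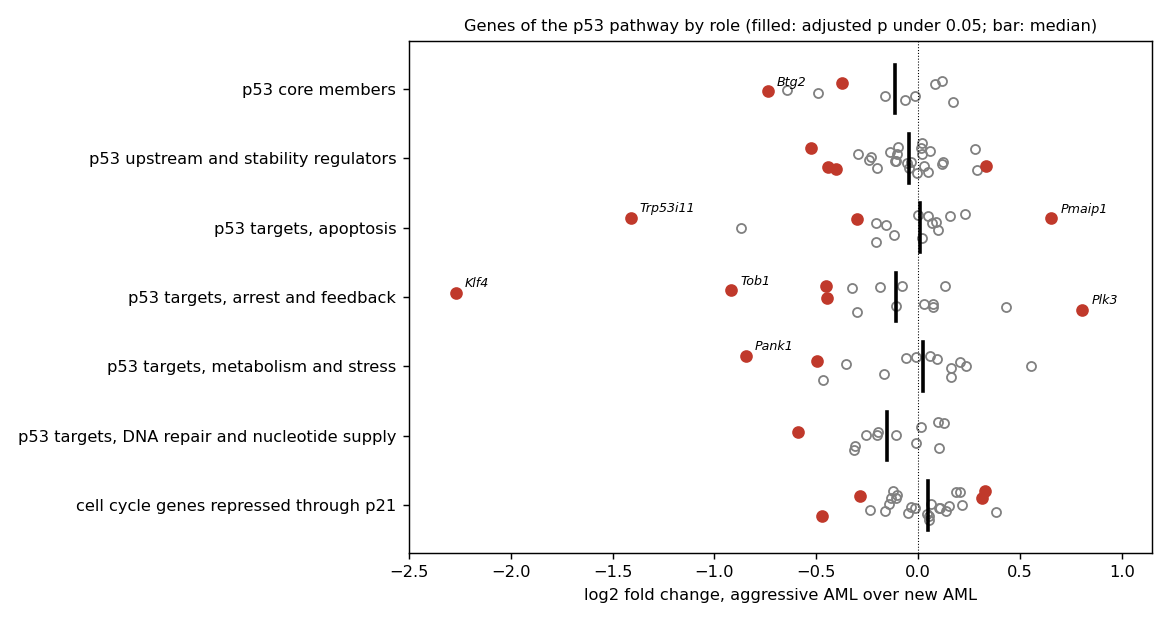
Log2 fold change (horizontal axis, aggressive over new AML) of each tested gene of the p53 pathway by role, with filled red points for an adjusted p under 0.05 and black bars for the list medians. The medians run from -0.15 to 0.05, and Klf4 and Trp53i11 lie farthest to the left while Plk3 and Pmaip1 lie farthest to the right.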

How the data were processed

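Poly-A RNA of GFP+ cells was sequenced in paired ends by the authors, aligned to mm10 (GRCm38) with HISAT2 and counted per gene with Rsubread 2.12.3, and genes under 1 CPM were left out. The gene annotation and strand setting are not given in the sources used here. Although the name of the deposited file says CPM, its values are whole-number counts with unequal totals, and they were used as raw counts. A gene was tested where 4 or more of the 8 libraries reached 1 CPM (12494 kept, 329 left out) with the quasi-likelihood test of edgeR 4.0.16 (R 4.3.3), TMM scaling and the group as the only term. Tests were two-sided, and p-values were adjusted by Benjamini-Hochberg over the whole table. SE is the fold change over the root of F, and intervals use the degrees of freedom of the fit. CPM carry the TMM factors, and depth bounds cover counting error only. Library ratios were compared by an exact permutation test over 70 choices. Alternatives used DESeq2 1.42.0, limma 3.58.1 (as trend on log2(CPM + 1) and with array weights; the study states a linear model in limma without these settings), other scalings, no filter, a replicate block and leaving out each library. The fits were tested on simulated data. Each pair of replicates differed by more than sampling noise (chi-square per degree of freedom 4.07 to 11.1).

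Lengths are merged exons of GENCODE M21, available for 92.9% of tested genes. Coordinates and promoters are from RefSeq GRCm38.p6. The members and lists were chosen with earlier results of these data known. All 10 members are named, as are up to 5 called genes of each list with the largest change and Pmaip1, Bbc3, Bax, Fas, Cdkn2a, Ppm1d, Usp7, Trp53bp1 and Atm. Atr, Chek1 and the marker genes Kit, Csf1r, Tfrc, Cd22, Bcl11b, Il7r and Nkg7 were named after their values were seen.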

Additional observations from a re-analysis of the deposited data

Results flagged for a closer look

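In 4 of 26 groups of 4 values that were checked (10 genes and 3 ratios in each group), 1 library lay far from the other 3 by Dixon's test, where chance gives about 1 in 20. Trp53 was 121.7 CPM in aggressive AML replicate 3, against 162.5 to 170.1 CPM in the other libraries of that group. Mdm2 was 71.0 CPM in new AML replicate 3, against 84.7 to 87.2 CPM. Zmat3 was 6.78 CPM in new AML replicate 2, against 9.48 to 9.96 CPM. Xpc was 390.5 CPM in new AML replicate 4, against 347.1 to 354.1 CPM.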

How the results depend on the processing

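The number of members called lower, 2 as reported, was 1 with upper quartile scaling and 1 with library totals only, because the adjusted p of Ccng1 became 0.0574 and 0.0523, and it was 1 to 2 without 1 library. Without aggressive AML replicate 3 the 2 genes were Btg2 and Trp53inp1. In the other fits it was 2, or 3 with array weights, where Trp53inp1 was called as well. No member was called higher in any of these fits. The log2 fold change of Mdm4 ran from -0.042 to 0.016 without 1 library, and was positive without new AML replicate 2 (0.016), aggressive AML replicate 3 (0.0092) and aggressive AML replicate 4 (0.0011). That of Zmat3 ran from -0.18 to 0.026, was positive without aggressive AML replicate 1, and was 0.074 with array weights. Of the 108 pathway genes, 8 to 15 were called lower and 2 to 8 higher without 1 library, the fewest in both directions without new AML replicate 4. Over all genes, 1466 to 2324 were called without 1 library, the fewest without new AML replicate 2. The differences of the log2 ratios were 0.19 to 0.43 (Mdm2 to Trp53), 0.06 to 0.21 (Mdm4 to Trp53) and 0.13 to 0.23 (Mdm2 to Mdm4) without 1 library.

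The labels number the replicates but state no pairing between the groups. Same-numbered libraries of both groups had deviations that correlated at -0.07 to 0.20, and 3 of 8 libraries correlated best with their own number. So few libraries cannot decide whether same-numbered ones share an origin or a batch. With the replicate block, 2 members were lower and 0 higher, 15 pathway genes were lower and 7 higher, and 2367 genes were called in all. For the paired ratios the smallest possible p is 0.125. With 4 libraries a group, a gene that was not called is not shown to be equal in both groups, and its interval gives the differences that remain possible.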

Other observations

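The genes whose pattern over the 8 libraries was most like that of a member were taken by the root mean square difference of log2(CPM + 1), each gene centred on its own mean, among 12493 other genes. For Trp53 these were Nup188, Gtf3c5 and Mid1ip1, at 0.052, 0.055 and 0.058. For Mdm2 they were Mical1, Foxp1 and Sh2d5, at 0.043, 0.047 and 0.052. For Cdkn1a they were Mycbp, Psmg4 and Ostc, at 0.071, 0.073 and 0.074. Among the other 9 members, the closest to Trp53 was Mdm4 at 0.18 and rank 1979, the closest to Mdm2 was Xpc at 0.12 and rank 573, and the closest to Cdkn1a was Mdm4 at 0.19 and rank 2588. A gene that did not vary at all would lie at 0.19 from Trp53, 0.14 from Mdm2 and 0.17 from Cdkn1a. The distances of these members were near those values, so that no shared pattern is shown.

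Within aggressive AML, replicate 3 was the lowest library in 5 of the 10 members (Btg2, Ccng1, Cdkn1a, Mdm4 and Trp53) and the highest in 2 (Mdm2 and Trp53inp1). In new AML, replicate 3 was lowest in 4 (Mdm2, Mdm4, Trp53inp1 and Xpc) and highest in Cdkn1a. In new AML, Btg2 and Ccng1 were both lowest in replicate 1 and highest in replicate 4, where Trp53inp1 and Xpc were also highest and Cdkn1a, Phlda3 and Trp53 were lowest.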
